A study of Homo sapiens with 24 samples.

Results

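The proteasome genes of SW1783, a human astrocytoma cell line, were followed through 24 h of exposure to extracts of Schisandrae Fructus. The members were every protein-coding gene whose symbol follows the pattern PSMA to PSMG with a number, which gave 48 genes of 19586 protein-coding genes (60675 rows in all). They fall into 8 alpha ring genes, 7 constitutive beta ring genes, 4 immunoproteasome or thymus beta subunits, 6 ATPases and 11 non-ATPases of the regulatory particle, 5 genes of alternative activators and of an inhibitor, and 7 assembly chaperones. The series holds 24 bulk RNA-seq libraries, 3 in each of 8 groups, in 2 batches of 12 libraries named so in the labels. In batch A the cells received vehicle A or the water extract (WESF) at 20 (low), 100 (medium) or 500 µg/mL (high). In batch B they received vehicle B or the 70% ethanol extract (EESF) at 12.4 (low), 62 (medium) or 310 µg/mL (high). The vehicle was PBS with 0.1% DMSO. According to the study's methods the high WESF dose was not toxic to these cells and the high EESF dose was mildly so. Extract and batch cannot be told apart, the doses of the extracts differ, and all values come from 1 cell line. Nothing in the labels says that the 3 libraries of a group came from separate cultures, so p-values measure the spread between libraries, which may be technical.

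The proteasome degrades proteins that carry ubiquitin chains. Its 20S core stacks 4 rings, the outer pair of alpha subunits and the inner pair of beta subunits, and the peptide bonds are cut by PSMB5, PSMB6 and PSMB7. The 19S regulatory particle recognises and unfolds the substrate with its ring of PSMC ATPases and its PSMD subunits. Interferon replaces the cutting subunits by PSMB8, PSMB9 and PSMB10, which makes the immunoproteasome. When proteasomes fail, the transcription factor NFE2L1 raises the subunit genes together through antioxidant response elements, which it binds with small MAF proteins.

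The libraries held 18727797 to 32567395 expected counts each. Vehicle A libraries held 26447834 to 28461841, WESF high 20731749 to 24692309, vehicle B 18727797 to 20465712 and EESF high 29659110 to 32567395, so the deepest and the shallowest groups met in the EESF high comparison. The 48 members took 0.5239% to 0.5797% of the protein-coding counts of a library. In CPM, counts scaled to library size with the trimmed mean of M values, they summed to 5563 ± 182 (SD, n = 3) in vehicle A and 5374 ± 47.6 in WESF high. The sums were 5455 ± 179 in vehicle B and 5534 ± 135 in EESF high. With WESF the sum thus moved by about as much as it varied between vehicle libraries, and with EESF by less. Replicate 1 was the highest library of each vehicle, with 5771 CPM in vehicle A against 5487 and 5432, and 5661 CPM in vehicle B against 5365 and 5340. In bulk RNA, fewer cells of a type and less RNA per cell cannot be told apart.

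Only part of the astrocyte and glioma markers read were expressed in the line. VIM, an intermediate filament of mesenchymal and glial cells, stood at 4530 to 5410 CPM, CD44 at 1700 to 2990 CPM and SOX9 at 45.1 to 91.9 CPM. Several of these markers fell at the high doses, with log2 fold changes under WESF and EESF of -1.62 and -1.39 for SLC1A3, -1.21 and -0.45 for NES, -0.72 and -0.48 for CD44, and -0.69 and -0.82 for SOX9, while VIM was called with neither. The marker list summed to 7779 ± 73.5 CPM in vehicle A and 6583 ± 128 in WESF high, and to 7943 ± 93.6 in vehicle B and 7422 ± 133 in EESF high. Most of that sum was VIM and CD44, and most of its fall was CD44. The mean of CD44 was 2836 CPM in vehicle A and 1722 in WESF high, and 2896 in vehicle B and 2077 in EESF high. The part of these shifts in the proteasome values was not tested. GFAP and AQP4, which define mature astrocytes, were at or near 0, with 0 to 10 counts for GFAP and 0 counts of AQP4 in 20 of 24 libraries. S100B and ALDH1L1 had at most 4 counts in a library. Of the lineage-defining immune markers, CD3E and AIF1 each had 0 counts in 23 of 24 libraries, while PTPRC, a marker of all leukocytes, had 40 to 323 counts.

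PSMA8, the alpha subunit of the testis, had 0 counts in 24 of 24 libraries, where a count of 0 allows up to 3 counts per library. PSMB11, the thymus subunit, had 0 to 4 counts, with 0 in 16 libraries. The other 46 members passed the filter on low counts in every comparison and were tested. Between members, levels were compared per kilobase of the exons of 1 reference transcript per gene. In vehicle A the highest level was that of PSMD2, a scaffold subunit of the regulatory particle base, with 275.9 ± 10.4 CPM per kb. PSMA7 followed with 173.1 ± 9.44, PSMB7 with 157.0 ± 6.21 and PSMB3 with 152.7 ± 15.2 CPM per kb, and the last pair did not differ beyond their spread. The lowest tested member was PSMD9, a chaperone of the regulatory base, with 10.3 ± 0.35 CPM per kb. The immunoproteasome subunits were close to it, with 12.35 ± 2.04 CPM per kb for PSMB10 and 12.38 ± 0.772 for PSMB9, levels that did not differ beyond their spread. PSMB8 stood at 25.06 CPM per kb. Among the 14 constitutive core subunits, which each intact core holds in equal number, transcript levels ran from 21.03 CPM per kb for PSMA5 to 173.1 for PSMA7, an 8.23-fold range with a median of 100.4. The 17 regulatory particle genes ran from 27.98 for PSMD12 to 275.9 for PSMD2, a 9.86-fold range. Both ranges depend on the transcript length used as divisor. That length was 3815 bases for PSMA5 and 962 for PSMA7, and 4356 for PSMD12 and 2913 for PSMD2. Whether the cells express these transcripts at full length was not tested.

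**Figure D1:**
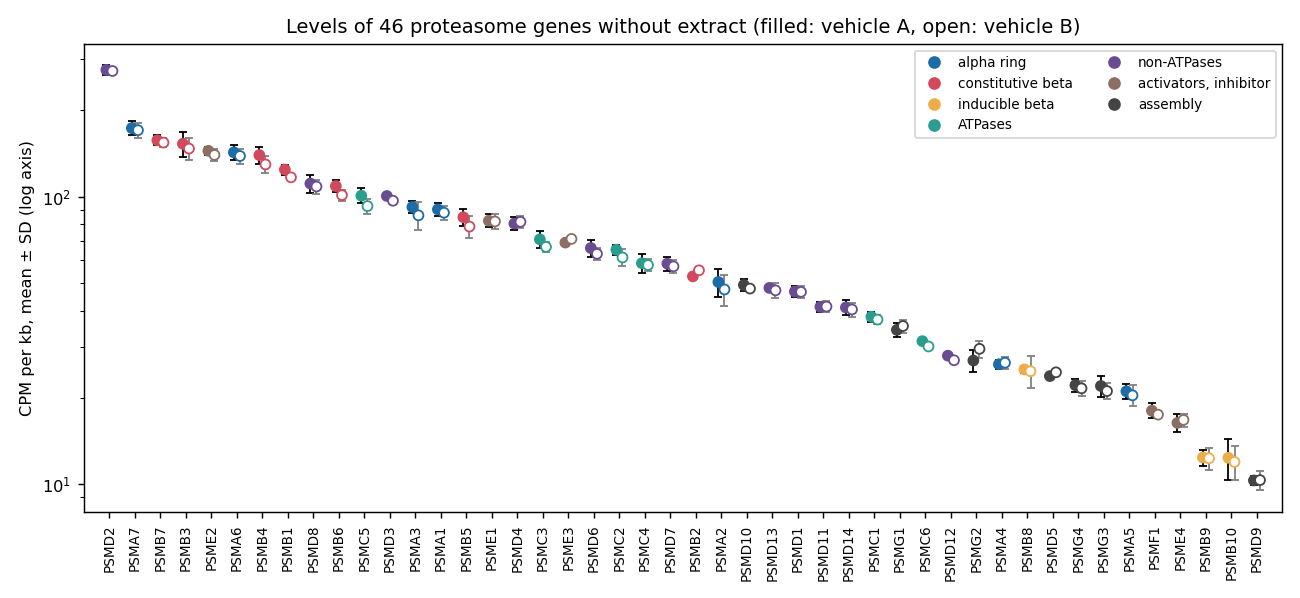
Level of each of the 46 tested members in the vehicles, in CPM per kb of transcript on a log axis. Genes are ordered by their level in vehicle A and coloured by class. Filled points are vehicle A, open points vehicle B, and bars are the mean ± SD of 3 libraries. PSMD2 stands highest at 275.9 CPM per kb in vehicle A, and PSMD9, PSMB10 and PSMB9 lie lowest.

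Windows of 250 bases upstream of the start site were read from RefSeq on GRCh38.p14 for 42 of the 48 members, 51 windows in all. PSMA7, PSMB1, PSMB6, PSMB7, PSMD4 and PSMG3 have no entry in the table used. The core of the antioxidant response element, TGACNNNGC on either strand, was in 13 of 51 windows (25.5%) against 10.9% of 35116 windows of all genes. The CCAAT box, on either strand, was in 19 windows (37.3%) against 32.0%, and GAAA followed after 2 bases by a further GAAA, as in the interferon-stimulated response element, in 5 (9.80%) against 3.02%. A match of these letters is a description of the sequence and not a bound site. The 3 windows shown do not overlap an annotated exon, and show a member called with both extracts, a member called with neither and a member called with EESF alone. Each is written 5′ to 3′ on the strand of the gene, with matches to TGACNNNGC (9 capitals) and to CCAAT or its complement ATTGG (5 capitals) marked. PSMA5 (chr1:109426449-109426698, minus strand) holds 2 CCAAT boxes and no match to TGACNNNGC. PSMB3 (chr17:38752491-38752740, plus strand) holds 2 CCAAT boxes and 1 TGACNNNGC, and PSMD3 (chr17:39980557-39980806, plus strand) holds 1 of each.
PSMA5: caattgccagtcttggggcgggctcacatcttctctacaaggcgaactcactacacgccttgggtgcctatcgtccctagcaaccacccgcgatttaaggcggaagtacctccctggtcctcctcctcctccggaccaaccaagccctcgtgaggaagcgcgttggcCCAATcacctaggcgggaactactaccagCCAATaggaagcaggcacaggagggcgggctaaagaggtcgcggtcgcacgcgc
PSMB3: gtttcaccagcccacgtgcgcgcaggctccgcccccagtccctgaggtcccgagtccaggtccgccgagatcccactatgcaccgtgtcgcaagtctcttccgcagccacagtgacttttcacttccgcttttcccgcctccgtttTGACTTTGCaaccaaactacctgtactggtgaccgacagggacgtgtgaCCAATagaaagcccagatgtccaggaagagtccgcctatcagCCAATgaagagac
PSMD3: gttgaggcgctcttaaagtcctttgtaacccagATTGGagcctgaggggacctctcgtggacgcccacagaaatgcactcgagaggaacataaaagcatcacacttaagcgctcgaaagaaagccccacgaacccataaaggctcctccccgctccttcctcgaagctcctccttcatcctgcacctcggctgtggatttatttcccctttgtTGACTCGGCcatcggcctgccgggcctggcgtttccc

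High WESF moved proteasome genes in both directions and by little. Of the 46 tested members 9 were upregulated and 16 downregulated against vehicle A at an adjusted p under 0.05 (edgeR's quasi-likelihood test, Benjamini-Hochberg adjustment), that is 54.3% of them. Among all 13129 genes tested, 68.9% were called, 34.3% upward and 34.6% downward. No member passed a 1.5-fold change, which 24.1% of all genes did. The members' log2 fold changes ran from -0.509 to 0.464 with a median of -0.025 (0.001 over all genes), and their median absolute log2 fold change was 0.134 against 0.314 over all genes. The groups did not overlap for 27 members, where 71.5% of all genes did not overlap.

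High EESF gave 12 upregulated and 7 downregulated members against vehicle B, 41.3% of the 46, where 58.0% of 13092 genes tested were called, 29.3% upward and 28.7% downward. None passed 1.5-fold, which 17.4% of all genes did. Log2 fold changes ran from -0.242 to 0.418 with a median of 0.018 (0.007 over all genes), and the median absolute change was 0.128 against 0.256. The groups did not overlap for 21 members, against 62.8% of all genes. The number of rises depended on the setting. It was 7 with all genes of the table in the fit. It was 5 without replicate 2 and 6 without replicate 3 of vehicle B, and 7 without replicate 2 or 3 of EESF high. The number of falls was 4 without replicate 2 of vehicle B.

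**Figure D2:**
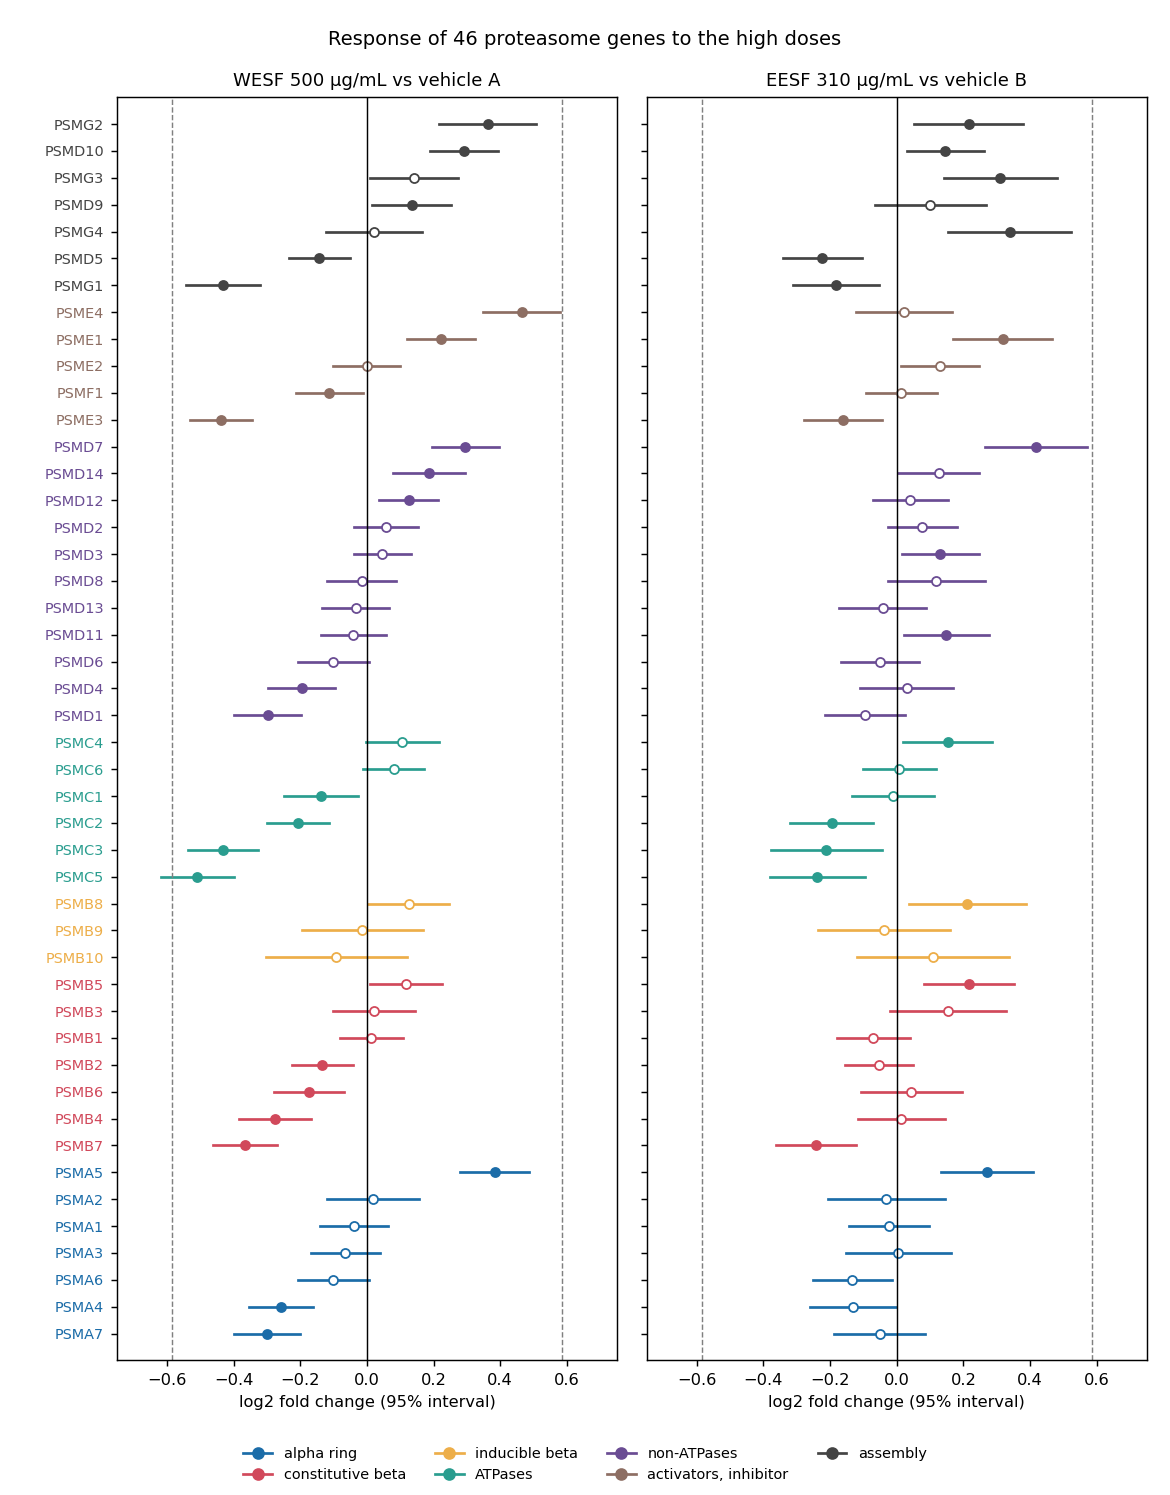
Log2 fold change of each tested member at the high dose against the vehicle of its batch, by class, with 95% intervals from the edgeR fit; filled points are called at an adjusted p under 0.05 and dashed lines mark 1.5-fold. No called member lies beyond the dashed lines, and with WESF the ATPases and the beta ring hold 4 falls each and no rise.

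The alpha ring of the core, which gates the entry of substrates, changed in 3 of 7 tested genes with high WESF and in 1 with high EESF, where 68.9% and 58.0% of all genes were called. PSMA5 rose with both. Its level was 84.97, 80.12 and 75.64 CPM in vehicle A and 101.3, 108.6 and 104.4 CPM in WESF high. In batch B it was 85.26, 73.56 and 74.24 CPM in the vehicle and 90.27, 95.06 and 95.9 CPM in EESF high. All treated libraries lay above those of their vehicle, a log2 rise of 0.38 (SE 0.0494, adjusted p = 2.74e-06) for WESF and 0.27 (SE 0.063, adjusted p = 0.00274) for EESF. PSMA4 fell with WESF, from 116.1, 117.4 and 109.5 to 92.62, 99.05 and 95.4 CPM, which is -0.26 on the log2 scale (SE 0.046, adjusted p = 9.21e-05). PSMA7 had a log2 fold change of -0.30 (adjusted p = 2.17e-05) with WESF and of -0.05 (adjusted p = 0.509) with EESF. The median of the 7 tested alpha genes was -0.065 with WESF and -0.031 with EESF.

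The constitutive beta ring, which holds the cutting sites, had 4 falls and no rise among 7 genes with high WESF, at a median log2 fold change of -0.134, where 68.9% of all genes were called and 34.6% downward. Its summed level was 921.3 ± 39.8 CPM in vehicle A and 844.0 ± 3.54 CPM in WESF high. PSMB7, the subunit of the trypsin-like site, had 161.6, 151.0 and 151.0 CPM in vehicle A and 119.3, 124.5 and 116.2 CPM in WESF high. It had 157.0, 145.6 and 152.2 CPM in vehicle B and 121.1, 134.0 and 129.5 CPM in EESF high. The groups did not overlap in either batch, and the log2 change was -0.37 with WESF (SE 0.0455, adjusted p = 1.76e-06) and -0.24 with EESF (SE 0.0558, adjusted p = 0.00261). PSMB6, of the caspase-like site, fell with WESF by 0.17 on the log2 scale (SE 0.0496, adjusted p = 0.00509) and had a log2 fold change of 0.04 with EESF. PSMB5, of the chymotrypsin-like site, went the other way. It rose with EESF, from 90.01, 80.52 and 75.81 to 93.67, 97.42 and 95.14 CPM, or by 0.22 on the log2 scale (SE 0.0625, adjusted p = 0.0101), a call lost without replicate 2 or replicate 3 of vehicle B. With WESF its log2 fold change was 0.12 (adjusted p = 0.0512). With EESF, PSMB7 fell and PSMB5 rose among the 3 cutting subunits, and with WESF PSMB6 and PSMB7 fell. The other falls of the ring with WESF were PSMB4 and PSMB2, at log2 fold changes of -0.28 and -0.13. With EESF the beta ring had 1 rise and 1 fall, where 58.0% of all genes were called, and its sum was 889.6 ± 33.9 CPM against 897.1 ± 32.7 CPM in vehicle B.

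The immunoproteasome subunits were expressed at low levels. With high WESF 0 of 3 tested genes were called and with high EESF 1, where 68.9% and 58.0% of all genes were. PSMB9 had 13.45, 12.41 and 11.92 CPM in vehicle A and 13.64, 10.94 and 12.75 CPM in WESF high, and 13.09, 11.25 and 13.17 CPM in vehicle B and 11.24, 13.13 and 12.1 CPM in EESF high. The groups overlapped in both batches, with log2 fold changes of -0.01 (95% interval -0.196 to 0.169) and -0.04 (-0.235 to 0.159). PSMB10 had log2 fold changes of -0.09 (-0.302 to 0.119) and 0.11 (-0.12 to 0.338). PSMB8 had 28.2, 28.9 and 27.42 CPM in vehicle A and 29.14, 32.43 and 30.79 CPM in WESF high, without overlap, at a log2 fold change of 0.12 (adjusted p = 0.0622). It was called with EESF, at 31.6, 24.71 and 27.02 CPM in vehicle B and 30.96, 33.23 and 32.33 CPM in EESF high. These groups overlapped through replicate 1 of the vehicle, the log2 fold change was 0.21 (SE 0.0813, adjusted p = 0.0397), and 7 of 13 alternative settings lost the call, with adjusted p up to 0.24 and a value of 0.12 without replicate 2 of vehicle B. The exchange of subunits was also read as the ratio of each immune subunit to the constitutive one it replaces. The log2 ratio of PSMB10 to PSMB7 was higher than in the vehicles by 0.287 in WESF high and by 0.356 in EESF high. With 1 library left out it ran from 0.219 to 0.385 and from 0.261 to 0.428. In this ratio PSMB7 fell with both extracts, at log2 fold changes of -0.37 and -0.24, while PSMB10 was called with neither. PSMB9 to PSMB6 moved by 0.151 (0.064 to 0.281 when 1 library was left out) and -0.081 (-0.159 to -0.009), and PSMB8 to PSMB5 by 0.007 (-0.051 to 0.063) and -0.002 (-0.07 to 0.038). None of the 18 ratio tests, 3 ratios at 6 doses, could pass, since the smallest p of an exact two-sided permutation test of 3 against 3 libraries is 0.1, and the PSMB10 ratios reached that value (adjusted p = 0.9).

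The ATPases of the regulatory particle had the lowest median of the 7 classes with either extract. With high WESF 4 of 6 fell and none rose, at a median log2 fold change of -0.172, and with high EESF 3 fell and 1 rose, at a median of -0.103. The 4 of 6 called with each extract compare with 68.9% and 58.0% of all genes. Their summed level was 731.0 to 796.6 CPM in vehicle A and 646.7 to 688.7 CPM in WESF high, without overlap. It was 694.1 to 759.2 CPM in vehicle B and 636.3 to 705.0 CPM in EESF high, with overlap. PSMC5, which encodes RPT6, had 143.2, 130.1 and 128.6 CPM in vehicle A and 90.54, 99.64 and 92.55 CPM in WESF high. In batch B it had 131.6, 121.0 and 117.4 CPM in the vehicle and 95.47, 110.9 and 107.4 CPM in EESF high. Every treated library lay below every vehicle library of its batch. The fall with WESF, 1.42-fold, was the largest of any member, which is -0.51 on the log2 scale (SE 0.0515, adjusted p = 1.52e-07), and that with EESF was -0.24 (SE 0.0661, adjusted p = 0.00824). PSMC3, which encodes RPT5, was at 117.5, 106.0 and 104.6 CPM in vehicle A and at 80.17, 83.18 and 79.85 CPM in WESF high. It was at 107.6, 101.6 and 99.64 CPM in vehicle B and at 77.05, 95.67 and 93.94 CPM in EESF high. Again the groups did not overlap, with log2 fold changes of -0.43 (SE 0.0497, adjusted p = 6.87e-07) and -0.21 (SE 0.0767, adjusted p = 0.0317), and the EESF call was lost in 4 of 13 alternative settings. Without replicate 1 of EESF high, its lowest library, the EESF value was -0.12. PSMC2 fell by 0.21 with WESF and by 0.20 with EESF on the log2 scale (adjusted p = 0.00044 and 0.0116). PSMC1 fell with WESF by 0.14 (adjusted p = 0.0272, lost in 3 of 13 settings), and a pseudogene, PSMC1P1, carried counts equal to 7.283% of those of PSMC1, so reads may have been split between them. PSMC4 rose with EESF by 0.15 (adjusted p = 0.0487), a call lost in 10 of 13 settings. PSMC6 was called with neither extract.

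**Figure D3:**
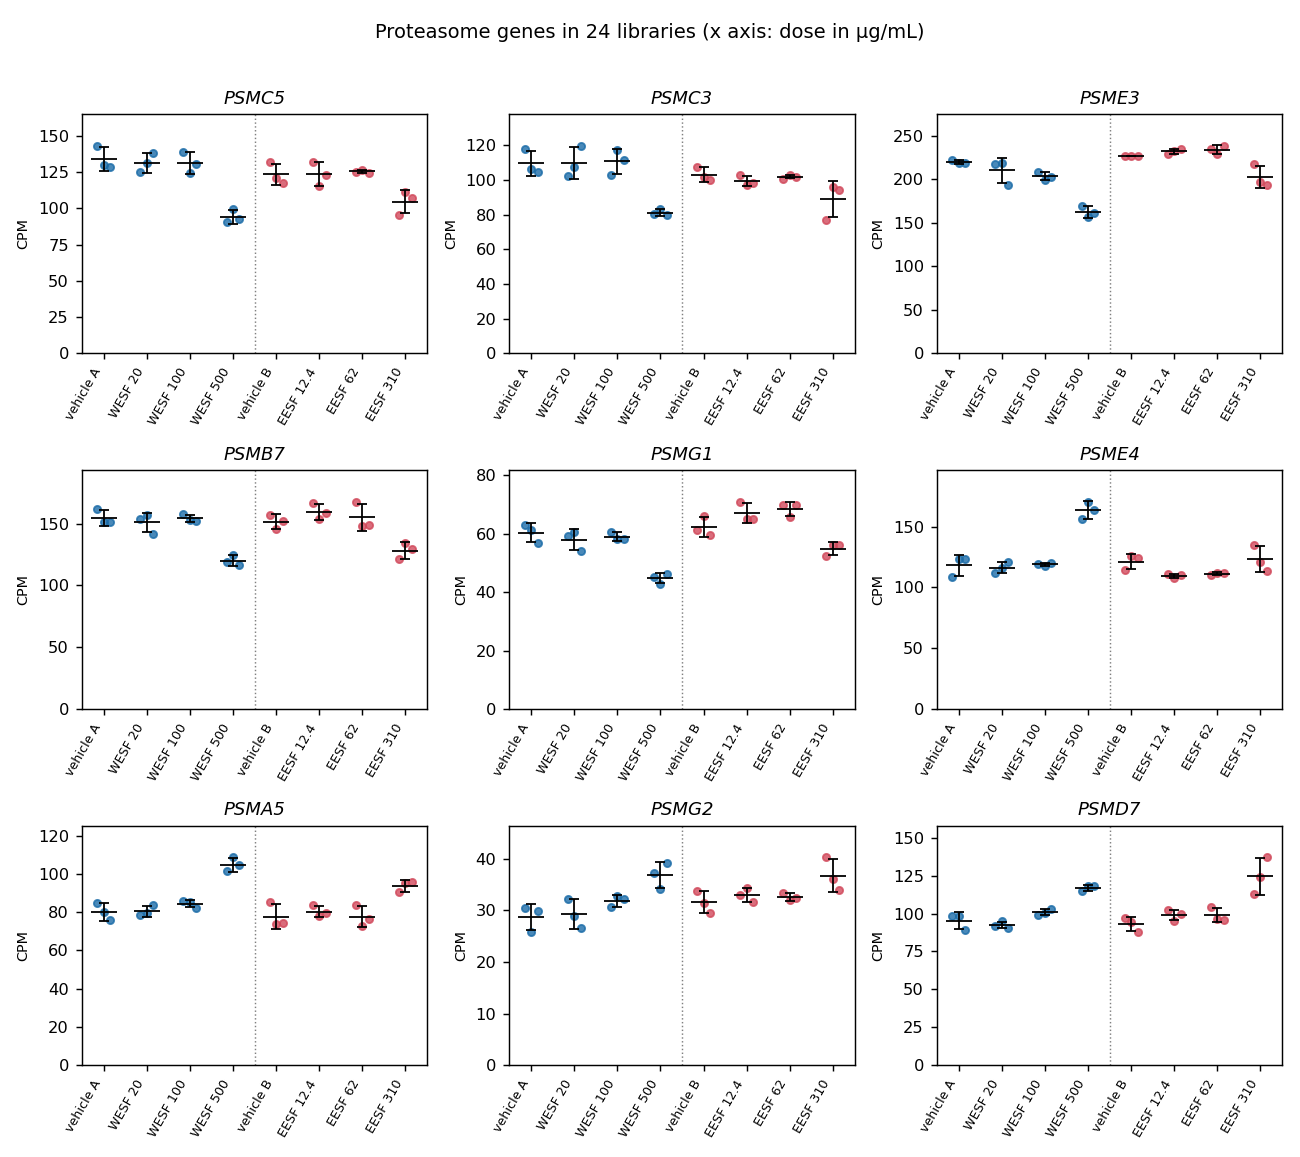
Level of 9 members in each of the 24 libraries, in CPM, by group in dose order within each batch; points are libraries and bars the mean ± SD of 3. PSMC5, PSMC3, PSMB7 and PSMG1 drop at both high doses, PSMA5, PSMD7 and PSMG2 rise, and PSME4 rises at high WESF while its EESF high libraries overlap the vehicle.

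The non-ATPase subunits, which receive and deubiquitinate the substrate, numbered 11. With high WESF 3 of them rose and 2 fell, and with high EESF 3 rose and none fell, where 68.9% and 58.0% of all genes were called, and the medians were -0.016 and 0.077. PSMD7 encodes RPN8, the partner of the deubiquitinating subunit. It had 98.6, 98.38 and 89.03 CPM in vehicle A and 114.8, 118.1 and 118.3 CPM in WESF high, and 97.12, 94.64 and 88.09 CPM in vehicle B and 112.6, 124.3 and 137.0 CPM in EESF high. Treated and vehicle libraries did not overlap, and the log2 change was 0.29 with WESF (SE 0.0477, adjusted p = 3.44e-05) and 0.42 with EESF (SE 0.071, adjusted p = 0.000296), the latter the largest rise of a member with EESF. PSMD14, the deubiquitinating subunit itself, rose with WESF by 0.19 (SE 0.0512, adjusted p = 0.00395) and had a log2 fold change of 0.13 with EESF (adjusted p = 0.0721). PSMD12 was the third rise with WESF, at 0.13 (adjusted p = 0.0133). The falls with WESF were PSMD1, at -0.30 (SE 0.0473, adjusted p = 2.74e-05), and the ubiquitin receptor PSMD4, at -0.20 (SE 0.0473, adjusted p = 0.00142). PSMD3 and PSMD11 rose with EESF by 0.13 and 0.15 (adjusted p = 0.0492 and 0.0452), calls lost in 10 and 8 of 13 settings. PSMD2, the member with the highest level, was called with neither.

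Alternative activators bind the ends of the core in place of the regulatory particle. PSME1 and PSME2 form the interferon-inducible 11S cap, PSME3 the nuclear cap of the same kind, and PSME4 (PA200) a single large nuclear cap. High WESF moved the nuclear caps apart. PSME4 had 108.4, 123.1 and 123.7 CPM in vehicle A and 156.1, 170.6 and 163.5 CPM in WESF high, without overlap. In batch B it had 114.0, 125.5 and 124.3 CPM in the vehicle and 134.8, 120.9 and 113.8 CPM in EESF high, with overlap. The log2 fold change with WESF was 0.46 (SE 0.0548, adjusted p = 9.78e-07), the largest rise of a member, and with EESF 0.02 (95% interval -0.123 to 0.167, adjusted p = 0.794). PSME3 had 222.8, 219.0 and 218.7 CPM in vehicle A and 169.4, 156.3 and 161.7 CPM in WESF high, and 226.8, 226.4 and 227.1 CPM in vehicle B and 217.8, 196.9 and 193.9 CPM in EESF high. It fell in both batches without overlap, by 0.44 (SE 0.0436, adjusted p = 1.24e-07) and by 0.16 (SE 0.0544, adjusted p = 0.0225) on the log2 scale, and the EESF call was lost in 5 of 13 settings.

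PSME1 rose with both extracts, from 84.15, 78.23 and 76.3 to 94.48, 89.39 and 94.35 CPM with WESF and from 84.59, 75.3 and 77.31 to 89.67, 100.9 and 105.1 CPM with EESF. On the log2 scale the rise was 0.22 with WESF (SE 0.0482, adjusted p = 0.000612) and 0.32 with EESF (SE 0.0685, adjusted p = 0.00167). Its partner PSME2 was called with neither, at 0.00 (95% interval -0.101 to 0.098) with WESF and 0.13 (0.013 to 0.246, adjusted p = 0.0547) with EESF. The pseudogenes PSME2P1 and PSME2P2 carried counts equal to 0.964% and 0.934% of those of PSME2. PSMF1, which encodes the inhibitor PI31, fell with WESF by 0.11 (SE 0.0475, adjusted p = 0.0441), a call lost in 8 of 13 settings, and had a log2 fold change of 0.01 with EESF.

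The assembly chaperones held partners that moved oppositely. PSMG1 and PSMG2 encode PAC1 and PAC2, which bind each other and guide the alpha ring. PSMG1 had 63.07, 61.13 and 56.82 CPM in vehicle A and 45.1, 42.82 and 46.3 CPM in WESF high, and 61.14, 65.94 and 59.56 CPM in vehicle B and 52.28, 56.21 and 56.16 CPM in EESF high. It fell without overlap by 0.43 (SE 0.0523, adjusted p = 1.32e-06) and by 0.18 (SE 0.0595, adjusted p = 0.0197) on the log2 scale, the EESF call being lost without replicate 2 of vehicle B. PSMG2 had 30.56, 25.86 and 29.95 CPM in vehicle A and 37.35, 34.25 and 39.25 CPM in WESF high, and 33.82, 31.51 and 29.53 CPM in vehicle B and 40.29, 36.04 and 33.96 CPM in EESF high. It rose without overlap, at log2 fold changes of 0.36 (SE 0.0684, adjusted p = 0.000164) and 0.22 (SE 0.0748, adjusted p = 0.0257), the EESF call being lost in 4 of 13 settings. PSMG3 and PSMG4, the second chaperone pair of the core, rose together with EESF, at 0.31 (SE 0.0776, adjusted p = 0.00428) and 0.34 (SE 0.0848, adjusted p = 0.00441). With WESF their log2 fold changes were 0.14 (adjusted p = 0.0565) and 0.02. Among the chaperones of the ATPase ring, PSMD10 (gankyrin) rose with both extracts, by 0.29 (SE 0.0481, adjusted p = 4.16e-05) and 0.15 (adjusted p = 0.0334, lost in 8 of 13 settings), while PSMD5 fell with both, by 0.14 (adjusted p = 0.00726) and 0.22 (SE 0.0549, adjusted p = 0.00398) on the log2 scale. PSMD9 rose with WESF by 0.13 (adjusted p = 0.0413), a call lost in 8 of 13 settings. The class had 3 rises and 2 falls of 7 with WESF, and 4 rises and 2 falls with EESF, where 68.9% and 58.0% of all genes were called.

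Of the 25 members called with high WESF and the 19 called with high EESF, 12 were called with both, 48.0% and 63.2% of these lists. All 12 moved in the same direction with both extracts, and so did 96.7% of all genes called with both. Being called with both held for 26.1% of the tested members and for 47.1% of the 13002 genes tested in both comparisons. The 5 rises were PSMA5, PSMD7, PSMD10, PSMG2 and PSME1, and the 7 falls were PSMC5, PSMC3, PSMC2, PSMB7, PSME3, PSMG1 and PSMD5. The comparisons share no libraries. Same-numbered vehicle libraries of the 2 batches deviated together, however (r = 0.581, 0.278 and 0.519), so the comparisons may not be independent. Another 13 members were called with WESF alone, 7 with EESF alone and 14 with neither, which does not by itself show that the responses differed.

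Whether the responses differed was tested as the EESF response minus the WESF response over the 12 high-dose and vehicle libraries. It was called for 9 members, 8 with the EESF response higher and 1 with it lower, that is 19.6% of the 46 against 26.0% of all 13376 genes tested, 12.7% with the EESF response higher and 13.3% with it lower. No member differed by more than 1.5-fold, where 3.88% of all genes were called beyond that. PSME4 had the largest difference, at a log2 value of -0.44 (SE 0.0938, adjusted p = 0.0033). PSME3 differed by 0.28 (SE 0.0675, adjusted p = 0.00706), its fall being deeper with WESF. Both calls held under each of 20 alternative settings. PSMC5 differed by 0.27 (SE 0.0885, adjusted p = 0.032) and PSMG1 by 0.25 (SE 0.0789, adjusted p = 0.0273), and PSMG4 by 0.32 (SE 0.11, adjusted p = 0.042), calls lost in 8, 9 and 12 of 20 settings. PSMB4, PSMA7, PSMD1 and PSMD4, named after their values were seen, differed by 0.29, 0.25, 0.21 and 0.23, of which PSMB4 lost its call in 1 setting, PSMA7 in 8, PSMD1 in 12 and PSMD4 in 13. Of the 12 members called with both extracts, 3 had a called difference, namely PSMC5, PSME3 and PSMG1. Examples with an interval around 0 were PSMA5 at -0.11 (95% interval -0.284 to 0.064), PSMD7 at 0.12 (-0.065 to 0.315) and PSMB7 at 0.13 (-0.021 to 0.273). The number of higher differences was 5 with all genes of the table and 2 with the replicate number as a block in both batches, under which PSMC5, PSMG1, PSMG4, PSMA7, PSMD1 and PSMD4 lost their calls. It fell to 2 without replicate 1 of WESF high, replicate 3 of vehicle B, or replicate 2 or 3 of EESF high. It was 3 without replicate 1 of vehicle A, replicate 3 of WESF high or replicate 2 of vehicle B, and 5 without replicate 2 of vehicle A or of WESF high. Since the extracts came in separate batches, a difference between extracts and one between batches cannot be told apart.

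**Figure D4:**
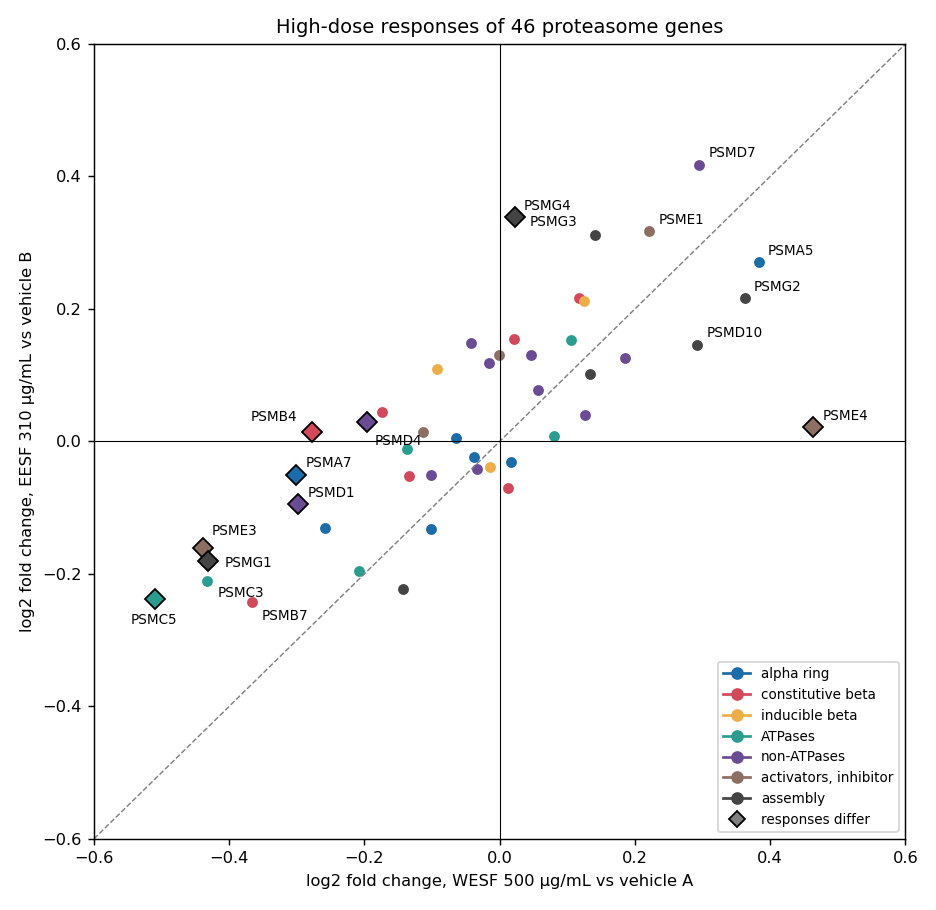
Log2 fold change of each tested member with high EESF (vertical) against high WESF (horizontal), each relative to the vehicle of its batch; diamonds mark the 9 members whose responses differed at an adjusted p under 0.05 and the dashed line is equality. The 12 members called with both extracts share their sign, and PSME4 lies farthest below the line.

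The vehicles differed in no member by the fit without pairing (0 called, 0.00% of all 13001 genes tested by edgeR; 0 members at an unadjusted p under 0.05; 0 by DESeq2), and 36 of 46 members were lower in vehicle B, at a median log2 difference of -0.038. The vehicles did not overlap for 6 members, against 8.85% of all genes. With the replicate number as a block, which pairs the vehicles, 7 members were called lower in vehicle B, where 3.68% of all genes were called, 1.82% upward and 1.86% downward. They were PSMC5 (-0.121), PSMB5 (-0.11), PSMB4 (-0.109), PSMB6 (-0.106), PSMB1 (-0.091), PSMC2 (-0.091) and PSMC3 (-0.089). Of these, PSMC5 and PSMB4 also had an EESF response above the WESF response.

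At the lower doses 1 member was called in all. Medium WESF called no member by edgeR's quasi-likelihood test, where 4.10% of all genes were called, 1.89% upward and 2.20% downward (8 members at an unadjusted p under 0.05, 0 by DESeq2). The groups did not overlap for 9 members, against 24.5% of all genes. Low WESF called none, where 0.00% of all genes were called (1 member at an unadjusted p under 0.05, 0 by DESeq2), and the groups did not overlap for 4 members against 8.48% of all genes. Medium EESF called none, where 15.4% of all genes were called, 6.90% upward and 8.48% downward, and 0.755% were called beyond 1.5-fold (7 members at an unadjusted p under 0.05, 0 by DESeq2). The groups did not overlap for 7 members, against 33.7% of all genes. Replicate 1 of the vehicles bore on this. Without it, medium WESF had 4 rises, and medium EESF had 6 rises and 1 fall. Low EESF called 1 member, where 9.35% of all genes were called, 3.11% upward and 6.24% downward, and the groups did not overlap for 7 members against 29.5% of all genes. The called member was PSMG3, at 31.91, 30.28 and 28.08 CPM in vehicle B and 36.17, 33.94 and 36.86 CPM in EESF low, without overlap, or 0.23 on the log2 scale (SE 0.0585, adjusted p = 0.0248). The call was lost when replicate 2 or 3 of vehicle B or any EESF low library was left out, with adjusted p up to 0.0954, and without replicate 1 of vehicle B low EESF had 4 rises and 1 fall. PSMC5 at the medium doses was at 138.9, 124.0 and 130.3 CPM with WESF and at 125.3, 126.5 and 124.6 CPM with EESF. Replicate 2 of WESF medium lay below the lowest library of vehicle A, and all EESF medium libraries lay inside the range of vehicle B.

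Genes that drive or assist the proteasome without carrying a PSM symbol were read from 5 further lists. Of 10 regulators of proteasome transcription, with NFE2L1, NFE2L2, their MAF partners and the enzymes that process or degrade them, 9 rose with high WESF and 4 with high EESF, and none fell, at median log2 fold changes of 0.38 and 0.113. Of all genes 34.3% were called upward with WESF and 29.3% with EESF. MAFF, a small MAF protein, had 20.2, 18.95 and 18.97 CPM in vehicle A and 56.28, 57.02 and 55.06 CPM in WESF high, and 20.16, 18.72 and 20.82 CPM in vehicle B and 51.92, 51.86 and 53.9 CPM in EESF high. It rose by 1.53 and 1.40 on the log2 scale, with all treated libraries above all vehicles. MAFK rose by 0.96 and 0.59, less with EESF (difference -0.375, adjusted p = 0.00138). SYVN1, a ubiquitin ligase that degrades NFE2L1 at the endoplasmic reticulum, rose by 0.74 and 0.54. NFE2L1 itself rose with WESF by 0.19 (adjusted p = 0.00114) and had 0.06 with EESF (adjusted p = 0.299), and NFE2L2 rose with WESF by 0.18 (adjusted p = 0.00263) and had 0.12 with EESF (adjusted p = 0.0651). Neither difference between the extracts was called (adjusted p = 0.134 and 0.515). Among the members, those with TGACNNNGC in the 250 bases upstream numbered 5 rises and 4 falls of 13 with WESF and 3 and 3 with EESF, at medians of 0.021 and 0.04. Those without it numbered 4 rises and 8 falls of 27 with WESF and 8 and 3 with EESF, at medians of -0.038 and 0.014. Of all genes, 34.3% were called upward and 34.6% downward with WESF, and 29.3% and 28.7% with EESF. Subunit genes moved in both directions with and without these letters upstream, and a difference between these sets was not tested.

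Of 12 other assembly factors and partners of the proteasome, 6 rose and 2 fell with high WESF, and 3 rose and 2 fell with high EESF, that is 66.7% and 41.7% called against 68.9% and 58.0% of all genes. ZFAND2A, a stress-induced partner, rose by 0.56 and 0.54, and AKIRIN2, which carries proteasomes into the nucleus, by 0.44 and 0.39. PAAF1, which binds the ATPases, rose by 0.31 and 0.60, with a difference between extracts of 0.293 (adjusted p = 0.0252) that was lost in 7 of 20 settings. TXNL1, a thioredoxin bound to the regulatory particle, fell by 0.51 and 0.40. ADRM1, a ubiquitin receptor (RPN13), fell with WESF by 0.23 (adjusted p = 0.00026) and had 0.10 with EESF (adjusted p = 0.203), and this difference was called (0.329, adjusted p = 0.00674). POMP, the maturation factor of the core, and SEM1, a small subunit of the lid, were called with neither.

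**Figure D5:**
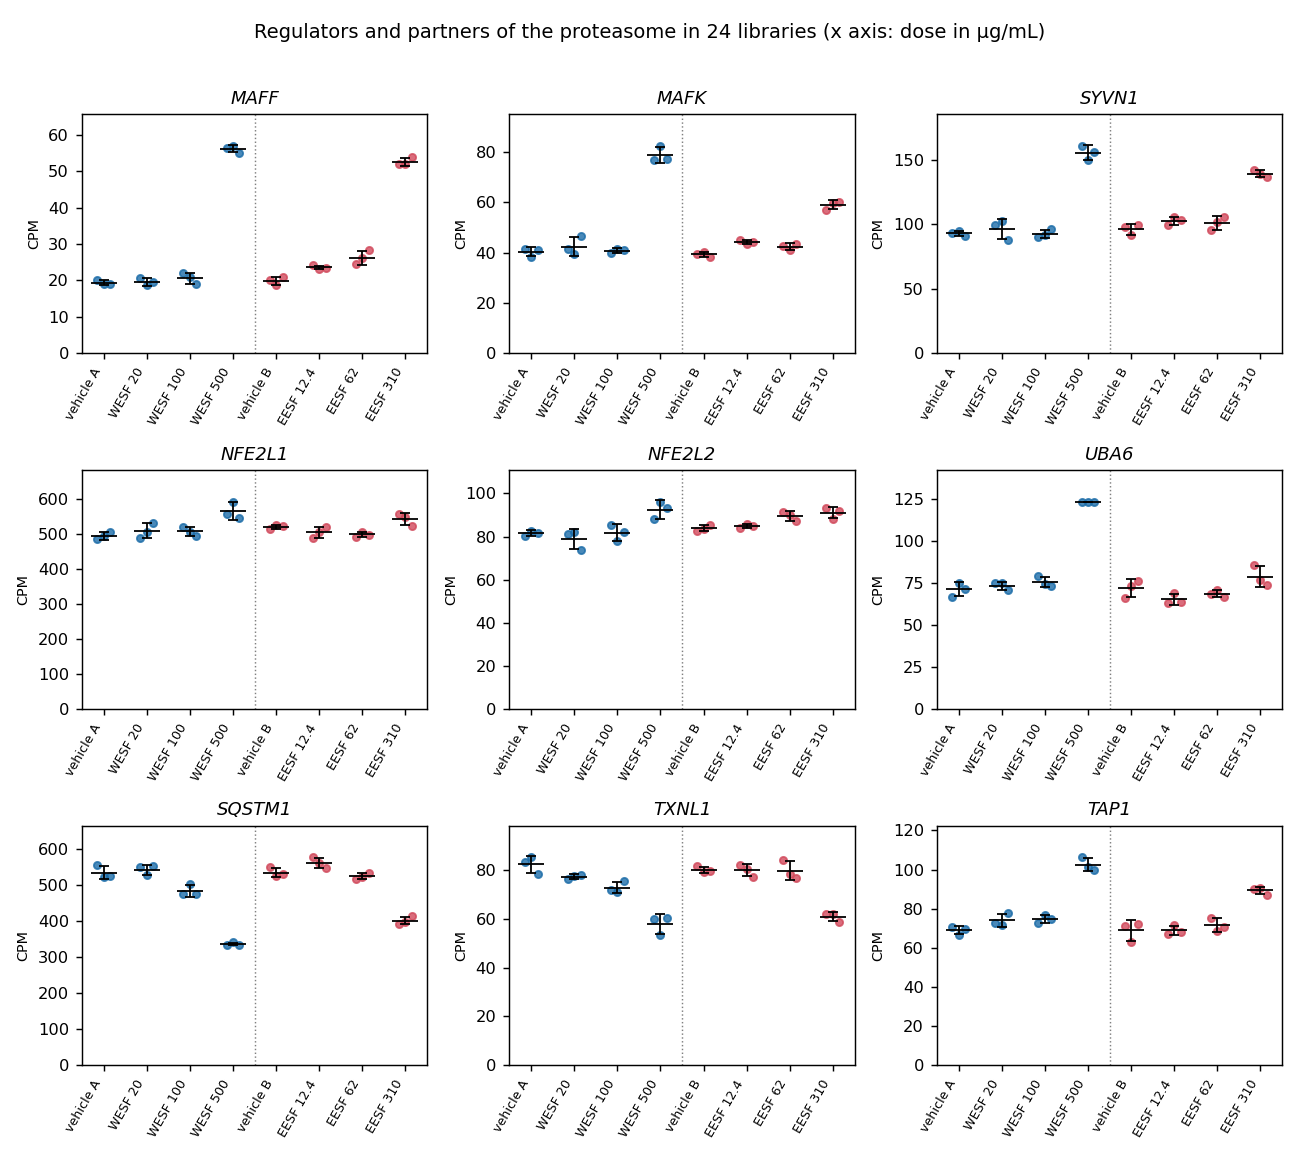
Level of 9 genes that regulate, feed or accompany the proteasome in each of the 24 libraries, in CPM, by group in dose order within each batch; points are libraries and bars the mean ± SD of 3. MAFF rises to 51.86 CPM or more in all 6 high-dose libraries, UBA6 stands out at high WESF and SQSTM1 drops at both high doses.

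The supply of ubiquitin held a gene that answered to WESF and not detectably to EESF. UBA6, an activating enzyme for ubiquitin and FAT10, had 66.87, 75.12 and 71.47 CPM in vehicle A and 123.4, 122.9 and 123.1 CPM in WESF high, and 66.04, 73.36 and 76.37 CPM in vehicle B and 85.54, 76.72 and 73.67 CPM in EESF high. The WESF libraries stood above their vehicle without overlap and the EESF libraries overlapped theirs. The log2 fold changes were 0.79 and 0.13, and the difference of -0.659 was called (adjusted p = 0.000152). UBB, a polyubiquitin gene, fell with WESF by 0.29 on the log2 scale (adjusted p = 2.05e-05). Among 10 shuttle and unfolding factors, 4 rose and 4 fell with WESF, and 4 rose and 2 fell with EESF, that is 8 and 6 of 10 called, where 68.9% and 58.0% of all genes were. SQSTM1, the autophagy receptor that also delivers ubiquitinated cargo, had 553.3, 522.4 and 524.9 CPM in vehicle A and 333.7, 339.9 and 333.2 CPM in WESF high, and 548.4, 523.3 and 528.2 CPM in vehicle B and 391.7, 397.3 and 412.3 CPM in EESF high. It fell without overlap by 0.67 and 0.41, the fall being deeper with WESF (difference 0.258, adjusted p = 0.0042). The shuttle factor UBQLN4 rose by 0.36 and 0.40.

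The interferon and antigen presentation genes that usually accompany the immunoproteasome moved in both directions. Of 9 such genes 3 rose and 2 fell with high WESF, and 1 rose and 2 fell with high EESF, 55.6% and 33.3% of the list against 68.9% and 58.0% of all genes. TAP1, a subunit of the peptide transporter and a neighbour of PSMB8 and PSMB9 in the genome, rose by 0.57 and 0.38. NLRC5, the transactivator of class I genes, fell by 0.53 and 0.39. Beside these, the list of 5 immune cell markers summed to 191.4 ± 5.51 CPM in vehicle A and 224.5 ± 16.1 in WESF high, and to 210.5 ± 11.9 in vehicle B and 271.8 ± 4.64 in EESF high. Most of that sum was CD68, a lysosomal protein that other cells express too, at 164 to 274 CPM, and it rose by 0.30 with WESF and 0.43 with EESF on the log2 scale (adjusted p = 7.61e-05 and 3.01e-05). PTPRC stood at 1.5 to 11.0 CPM and fell, at log2 fold changes of -2.25 and -2.38 (adjusted p = 4.79e-11 and 7.81e-08). CD3E and AIF1 had at most 1 count in a library. Their part in the immunoproteasome values was not tested.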

How the data were processed

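RNA of SW1783 cells was sequenced by the authors as 24 libraries. Per the study's methods and the submitters' processing notes, reads were checked with FastQC 0.11.9, trimmed with Trim Galore 0.6.6, aligned with STAR 2.7.9a and quantified with RSEM 1.3.3. The deposited values are expected counts per gene, of which 10.9% are not whole, and they were rounded here. Biotypes and transcript lengths came from GENCODE 44 (56558 of 60675 rows matched), and 0 sample columns were left out. Protein-coding genes were filtered (filterByExpr), scaled (trimmed mean of M values) and tested with edgeR 4.0.16 (R 4.3.3) by the quasi-likelihood test in fits of the 6 libraries compared, with Benjamini-Hochberg adjustment over all genes tested and a threshold of 0.05. The difference between extracts used 12 libraries. Alternatives were DESeq2 1.42.0, its size factors, unscaled totals, no filter, all genes, all groups in 1 fit, a replicate block and leaving out each library. The scripts were tested on simulated data. Replicate pairs differed by a chi-square of 2.02 to 15.46 per degree of freedom, so none was a duplicate.

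Same-numbered vehicle libraries deviated together (r = 0.581, 0.278 and 0.519), and the numbers were taken to pair the vehicles. The members and lists were chosen with earlier results of these data known. Members named were the 5 largest called rises and falls at each high dose, the catalytic, immune, activator, PSMG and PSMD14 genes, and, of the other lists, POMP, ADRM1, SEM1, NFE2L1, NFE2L2 and the largest called rise and fall at each high dose. Others are named to account for every call of a class or as further values of a list, chosen after their values were seen. Some genes of the further lists are not reported here.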

Additional observations from a re-analysis of the deposited data

Results flagged for a closer look

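The 9 members below stand here because the EESF response and the WESF response at the high dose differed by the test of the difference itself (edgeR's quasi-likelihood test, 12 libraries). The response of PSME4 was lower with EESF, by a log2 difference of -0.44. The responses of the other 8 were higher with EESF, by 0.279 for PSME3, 0.293 for PSMB4, 0.252 for PSMA7, 0.273 for PSMC5, 0.252 for PSMG1, 0.205 for PSMD1, 0.319 for PSMG4 and 0.228 for PSMD4. Of these 8 members, 7 fell with WESF and PSMG4 rose with EESF. Extract, batch and dose cannot be told apart in this difference. With the replicate number of the vehicles as a block, chosen after seeing the data, 9 members were higher and 1 lower.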

How the results depend on the processing

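No called value changed its sign under any alternative run (values that were not called were not judged for sign), and no scaling moved the median of all genes by over 0.1 on the log2 scale. The counts of calls that moved by over 1.5 times were these. With all genes of the table the rises with high EESF numbered 7 and the higher differences between extracts 5. With the replicate block the rises with high EESF numbered 7, those with medium EESF 1, the falls with low EESF 1, the members lower in vehicle B 7 and the higher differences between extracts 2. Without the filter medium EESF had 1 rise and low EESF 1 fall. Leaving out 1 library gave 8 to 12 rises and 14 to 17 falls with high WESF, 5 to 14 and 4 to 7 with high EESF, 0 to 4 rises with medium WESF, 0 to 6 rises and 0 to 1 fall with medium EESF, 0 to 4 rises and 0 to 1 fall with low EESF, and 2 to 11 higher differences between extracts. The cause was not tested. Of the single-gene values outside the leave-one-out settings, 836 kept their side of the threshold and 81 lost it, and within those settings 702 kept it and 192 lost it. In the 6 dose comparisons the libraries share only a number, so the block is an alternative there. Depth limits PSMB9, PSMB10 and PSMB11, the members with the fewest counts beside PSMA8.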
